A study of Mus musculus with 18 samples.

Results

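The small RNAs described here are the predicted piRNAs of mouse sperm that the submitters' annotation lists under LTR/ERVK, the class of endogenous retroviruses that holds the intracisternal A particles and the other betaretrovirus-like families. They were taken from the deposited list of predicted piRNAs by the repeat class written beside each entry, up to number 605324, the last entry that the lists of all 18 libraries hold whole. This gave 138986 ERVK entries of 605324 predicted piRNAs (22.96%) in 36 repeat classes. No measured level entered the choice. Each entry is 1 distinct read sequence with the bounds, strand and class of the annotated repeat copy under which it was filed.

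Small RNA was sequenced from sperm of ICR mice, an outbred strain, in 6 groups of 3 libraries. F0 NHS males were given NH3 and H2S for 5 weeks from 3 weeks of age, and F0 Con males were their controls. F1 NHS males were sons of treated F0 males and untreated females, F2 NHS males were sons of F1 males mated at 8 weeks with untreated females, and neither generation was treated itself. F1 Con and F2 Con were the controls of those generations. No genotype, dose or number of animals per library is given in the sources used here, so p-values measure the spread between libraries, which may be technical in part. Library totals ran from 17224455 to 29430555 reads. Levels are TPM, here the reads of an entry scaled to the total reads of the library as in CPM, with no length term, and 1 TPM rests on at least 17.2 reads. Reads carry no molecular identifiers, and the precision that a number of reads gives to a single value covers counting error only.

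piRNAs are small RNAs of the germline that are bound by PIWI proteins and guide the silencing of transposons. In mouse testis the primary piRNAs begin mostly with U (T in the sequenced cDNA), and the cleavage cycle called ping-pong leaves partners that share complementary 5′ ends and carry A at the tenth base. ERVK elements are among the most active mouse retrotransposons and are a classic piRNA target in fetal germ cells. A retrovirus primes reverse transcription from the 3′ end of a host tRNA, which pairs with a primer binding site just inside the 5′ LTR.

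Before the results, 1 property of the libraries has to be given because it runs through all of them. The 18 libraries fell into sets of 12 and 6 by the level of novel_mir1, a predicted hairpin listed at a tRNA gene. It stood at 42.9 to 621 TPM in the larger set and 2378 to 18720 TPM in the smaller. The smaller set was F0 Con replicate 2, F0 NHS replicate 3, F1 NHS replicate 2, F2 Con replicates 1 and 2 and F2 NHS replicate 1. It was defined from the data and is not a group of the study. Marker miRNAs were read in the 16 libraries whose lists hold them. The germ cell list (miR-34b, miR-34c, miR-449a) summed to 4016 to 22170 TPM, smooth muscle miRNAs to 5927 to 169501, red blood cell miRNAs to 4322 to 77243, epithelial miRNAs to 3370 to 25390, leukocyte miRNAs to 132 to 1518, muscle miRNAs to 67.3 to 1508 and the liver miRNA to 1.63 to 239. The part of such other cells in the ERVK reads was not tested.

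The repeat copy with the most ERVK reads was filed at chr11:9975636-9975989 on the minus strand (mm10, bounds as deposited), where the annotation used here (GENCODE vM21) has no gene. It carried 16.8% of the mean summed ERVK TPM with 65 entries. Its 6 tested sequences are shown because they differ by a base or so at their ends and by library. Capitals mark the 17 bases that all 6 share. As background, they resemble the 3′ end of a lysine tRNA, that is, the tRNA strand and not the primer binding site that pairs with it. novel_pir257852 ends in cca, as a mature tRNA does. No tRNA table was used here, so whether these reads came from the repeat copy or from a tRNA was not tested.
novel_pir257859: cAGGTCCCTGTTCGGGCGcc
novel_pir257867: cAGGTCCCTGTTCGGGCGc
novel_pir257871: cAGGTCCCTGTTCGGGCG
novel_pir257856: AGGTCCCTGTTCGGGCGcc
novel_pir257868: AGGTCCCTGTTCGGGCGc
novel_pir257852: tcAGGTCCCTGTTCGGGCGcca

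The second copy, at chr14:31515238-31515829 on the plus strand, has no annotated gene either and carried 12.7% of ERVK TPM with 24 entries. It holds the most abundant ERVK entry. Capitals mark the first and the tenth base, the positions read for piRNA-like sequence.
novel_pir359883: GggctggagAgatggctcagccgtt
novel_pir359879: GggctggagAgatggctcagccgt

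Further sequences carry single results below. novel_pir321240 and novel_pir321236 were filed at chr13:87002807-87004339 (plus strand) and match snoRNA genes exactly. novel_pir575419 was filed at chr3:55092856-55092932 (minus strand). novel_pir372886 was filed at chr14:120798436-120798953 (plus strand), in a copy that overlaps an exon of the snRNA gene Gm25781. novel_pir439507, filed at chr17:27299478-27300101 (plus strand), begins with T, has 26 bases and is among the 3 most abundant entries with T first and 26 to 32 bases. Capitals again mark the first and the tenth base.
novel_pir321240: GctgaggatGatttaagtt
novel_pir321236: AgctgaggaTgatttaagtt
novel_pir575419: GcagcaggtCtccaaggt
novel_pir372886: AacgatacaGagaagatt
novel_pir439507: TgctgcacaAagacccggaaagaagg

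Most ERVK entries were rare. Of the 138986, 137981 were listed in at least 1 library and 1005 in none. Entries listed in exactly 1 library made up 78.8%, entries in all 18 libraries numbered 92, and 56.3% of the listed ones had a single read in the whole study. The 968352 ERVK reads were concentrated in few sequences: 10 sequences held 35.7% of them and 100 held 46.5%. The entries were filed under 36542 repeat copies, of which 21050 had a single entry and the 5 leading copies held 39.1% of ERVK TPM. Plus-strand copies held 51.0% of the entries. Chromosome 10 held 38.2% of the ERVK entries and 34.1% of all predicted piRNAs. Numbers follow the order of chromosomes in the file, so the limit at number 605324 leaves several chromosomes out, and these shares do not describe the genome.

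The entries were not independent of each other. Of 132316 entries of at least 18 bases, 91464 shared a stretch of 18 bases with another ERVK entry, and linking all such pairs gave 50975 groups with 40852 singletons. The largest group had 5519 entries from 2113 copies, and its most abundant member was novel_pir549429. Summed over the group, the larger set had a median of 164 TPM and the smaller 80.8. The group led by novel_pir165643, a GGA repeat, had 1184 entries, of which 4.90% began with T. It stood at a median of 41.3 TPM in the larger set and 10.4 in the smaller.

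novel_pir359883 averaged 219 TPM and was listed in all 18 libraries. In F0 Con it stood at 435, 22.8 and 298 TPM (replicates 1 to 3) and in F0 NHS at 771, 368 and 3.97. In F1 Con it stood at 42.5, 50.1 and 27.4 TPM and in F1 NHS at 142, 1.83 and 248. In F2 Con it stood at 1.30, 1.22 and 111 TPM and in F2 NHS at 2.62, 1111 and 301. Groups overlapped in every generation, and the 6 lowest libraries were the 6 of the smaller set. The sequence also occurs exactly in 8 genes that GENCODE types as miRNA, Gm24048 among them, so its reads cannot be assigned to the ERVK copy alone.

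The form of novel_pir359883 without its first base was not filed under ERVK. It is novel_pir333349, listed under LTR/ERVL-MaLR, and its levels ran the other way. novel_pir333349 stood at 1590 TPM in F0 Con replicate 2, 409 in F0 NHS replicate 3, 115 in F1 NHS replicate 2, 82.1 and 145 in F2 Con replicates 1 and 2, and 139 in F2 NHS replicate 1. In the larger set, novel_pir333349 ranged from 0.824 to 24.3 TPM. By number of entries such crossing was uncommon for ERVK as a whole. The form without the first base was listed for 21857 ERVK entries, under ERVK for 21203 of them (97.0%) and under another class for 654 (2.99%). These shares do not weigh reads, and by reads the crossing was large in some libraries. novel_pir359879 without its first base is novel_pir333342, also under LTR/ERVL-MaLR. It stood at 820 TPM in F0 Con replicate 2 and 250 in F0 NHS replicate 3. All ERVK entries summed to 1207 and 819 TPM there.

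At the chromosome 11 copy, where the forms with and without the first base were both filed under ERVK, the same exchange was seen within the class. novel_pir257859, which starts with C, stood at 14.3, 5.53 and 45.2 TPM in F0 Con, 644, 365 and 1.23 in F0 NHS, and 200, 180 and 105 in F1 Con. It stood at 2.38, 1.76 and 12.2 TPM in F1 NHS, 1.55, 21.9 and 47.6 in F2 Con and 3.43, 79.6 and 7.77 in F2 NHS. novel_pir257856, the same sequence without that C, stood at 0.157, 11.1 and 0.160 TPM in F0 Con and at 1.41, 0.646 and 6.24 in F0 NHS. In F1 it stood at 0.156, 0.170 and 0.0392 TPM in Con and 0.116, 41.4 and 0.0741 in NHS. In F2 it stood at 83.6, 1175 and 0 TPM in Con and 259, 0.362 and 0 in NHS. Reads that began with the C made up 48.3% to 99.7% of the reads of this copy in the larger set, and reads that began 1 base later made up 68.9% to 97.4% in the smaller.

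**Figure D1:**
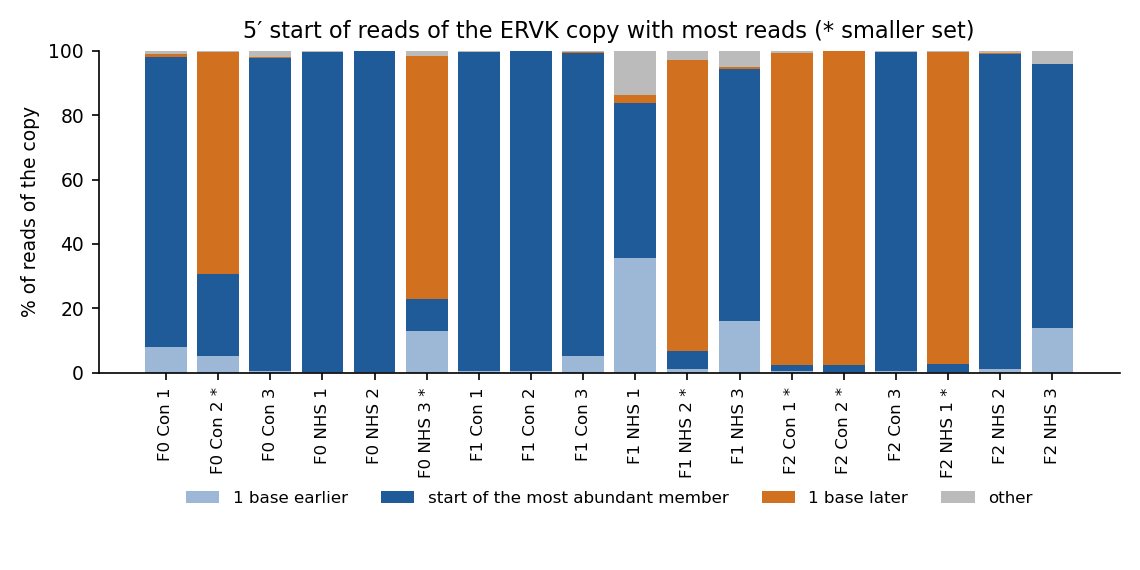
Share of the reads of the chromosome 11 copy (y axis, percent) by 5′ start in each of the 18 libraries (x axis; asterisks mark the 6 libraries of the smaller set), counted from the start of novel_pir257859. The start 1 base later holds 68.9% to 97.4% of reads in the marked libraries and at most 2.46% in the others.

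The other abundant entries were each high in few libraries. novel_pir575419 averaged 52.7 TPM and stood at 377 in F0 Con replicate 2 and at 124 and 241 in F2 Con replicates 1 and 2, all of the smaller set. In the other 3 libraries of the smaller set it stood at 11.4 to 24.2 TPM, within the 2.89 to 25.3 TPM of the larger set. Its copy is 76 bases long as deposited and holds 14 entries. novel_pir321240 averaged 62.8 TPM and was highest in F0 Con replicates 1 and 3, at 291 and 314. It matches the snoRNA genes Snord1b, Snord1c and Gm24253, whose products guide chemical modification of ribosomal RNA. novel_pir175494, of 12 bases, was listed with 390 TPM in F1 NHS replicate 1 and with 0 reads in the other 17 libraries.

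The members whose levels over the 18 libraries were most like those of novel_pir359883 were novel_pir359879 (Pearson r = 0.987), novel_pir549433 (0.901) and novel_pir549435 (0.874). These are descriptions over libraries that share the difference between the sets, and novel_pir359879 shares 24 bases with novel_pir359883.

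In length the ERVK reads were short for piRNAs. Pachytene and fetal piRNAs bound by the mouse PIWI proteins are known to lie in the range of 26 to 32 bases used here. Among the entries, which run from 10 to 38 bases, 18.3% had 26 to 32 bases. By reads, that range held 2.36% to 21.2% (median 11.7%) in the larger set and 2.51% to 19.2% (median 8.38%) in the smaller, so the sets overlapped. Reads of 18 to 23 bases made up 34.9% to 77.0% in the larger set and 69.1% to 94.7% in the smaller. F1 NHS replicate 1 was the sole library with ERVK entries under 18 bases, and there they made up 35.5% of ERVK reads and 26.6% of its distinct sequences.

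**Figure D2:**
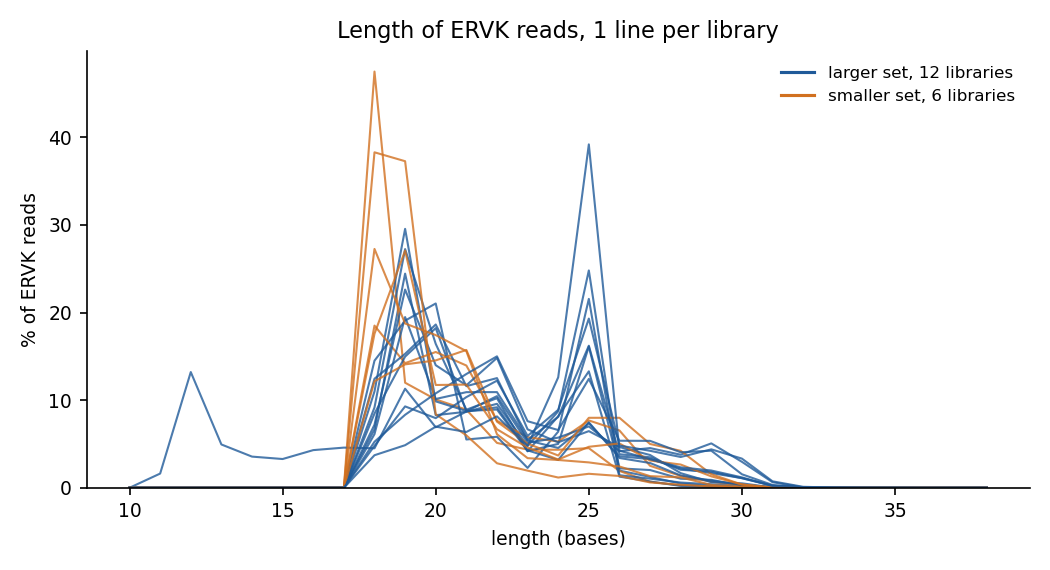
Percent of ERVK reads (y axis) at each length in bases (x axis), 1 line per library, coloured by library set. A single line, F1 NHS replicate 1, lies above 0 under 18 bases, where it holds 35.5% of its ERVK reads.

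The first base of the 26 to 32 base entries separated the sets without overlap. T was the first base of 63.0%, 26.1% and 61.8% of the distinct entries in F0 Con and of 62.9%, 58.7% and 24.1% in F0 NHS (replicates 1 to 3). It was first in 64.6%, 60.2% and 67.5% in F1 Con and in 63.4%, 25.4% and 57.3% in F1 NHS. The shares were 21.6%, 24.9% and 61.9% in F2 Con and 28.6%, 52.8% and 61.3% in F2 NHS. The 12 libraries of the larger set thus ranged from 52.8% to 67.5% (median 61.9%) and the 6 of the smaller set from 21.6% to 28.6% (median 25.2%). The distinct entries behind each share numbered 536 to 4822. Neither exposure nor generation ordered these shares in this way.

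At the tenth base, A was present in 29.2% to 36.3% (median 34.1%) of the 26 to 32 base entries in the larger set and in 20.6% to 26.01% (median 23.9%) in the smaller. At the ninth base the order was the reverse, with 19.6% to 26.01% (median 23.5%) in the larger set and 28.1% to 34.9% (median 32.9%) in the smaller. Pooled, the larger set had T first in 55.5% of 20177 distinct entries and A at the tenth base in 32.6%. The smaller set had T first in 25.9% of 6405 entries and A at the ninth base in 32.8%. Of the ERVK entries of all lengths, 34.6% began with T.

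**Figure D3:**
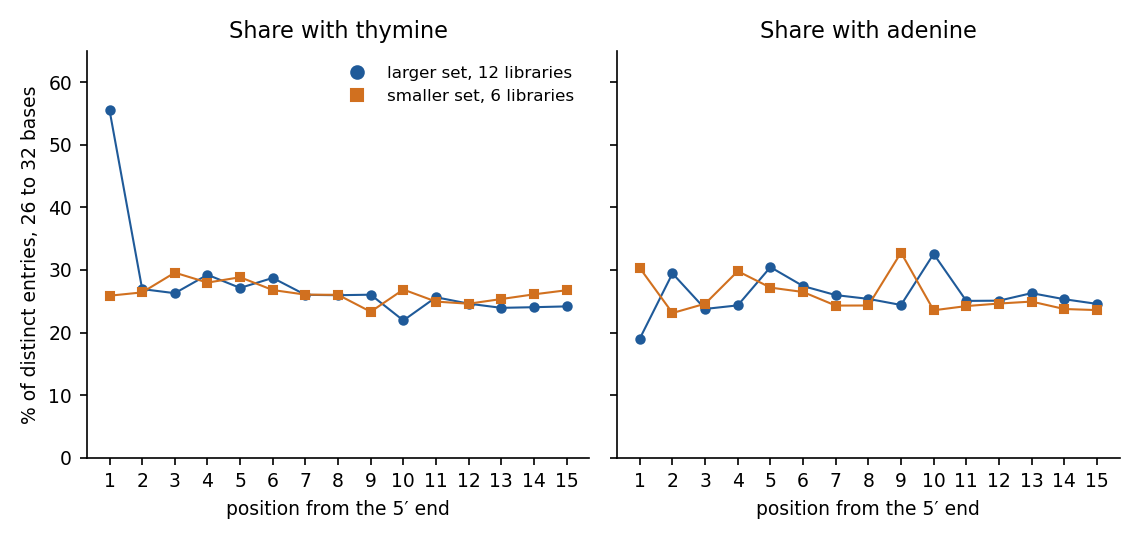
Percent of distinct ERVK entries of 26 to 32 bases (y axis) with thymine (left) or adenine (right) at each position from the 5′ end (x axis), pooled within each library set. Thymine at position 1 stands at 55.5% in the larger and 25.9% in the smaller set, and the adenine maximum past the first bases lies at position 10 in the larger set and 9 in the smaller.

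The 5′ ends themselves were shifted between the sets. Entries were grouped into families with the same last 17 bases. In 3136 families with at least 5 reads in each set, summed over the family, the leading length was compared. Families of 1 entry, where both sets have the same length, were left out here and at the 3′ end, so the shares do not cover them. The leading entry of the smaller set was 1 base shorter at its 5′ end in 1715 families (54.7%), of equal length in 429 (13.7%) and 1 base longer in 186 (5.93%). At the 3′ end, in 1778 families with the same first 17 bases, the lengths were equal in 695 (39.1%), 1 base shorter in 249 (14.0%) and 1 base longer in 160 (9.0%). Of 33630 entries listed in the smaller set alone, 19.4% equalled an entry of the larger set without its first base and 7.02% an entry of the larger set without its last base.

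Complementary 5′ ends, the geometry that ping-pong cleavage leaves, were counted among entries of 26 to 32 bases filed under the same repeat copy, without 5′ ends complementary to themselves. In the larger set 533 pairs had their first 10 bases complementary, against 281 for 8 bases, 249 for 9, 294 for 11 and 266 for 12. Pairs with 1 to 5 complementary bases were more numerous, at 1077 to 84374, and from 6 to 20 bases the count was highest at 10. In the smaller set 132 to 13755 pairs had 1 to 5 complementary bases, and from 6 to 20 bases the count was highest at 8, with 68 pairs against 29 for 7, 32 for 9 and 32 for 10. With all entries of at least 20 bases, the larger set had 4961 pairs at 10 bases against 3464 at 9 and 4016 at 11, and the smaller had 949 at 8 against 749 at 7 and 686 at 9. These were not the highest counts, since the larger set had 4997 pairs at 6 bases and 5538 to 7956 at 16 to 20, and the smaller 995 at 6 and 1179 to 1665 at 16 to 20. These are counts of sequence pairs that share copies and overlap each other, and they were not tested. The pair with most reads in each set is shown with the pairing bases in capitals, for the larger set from chr10:18239451-18240253 (plus strand, intron of the lincRNA gene Gm10827) and for the smaller from chr16:14476128-14476467 (minus strand).
novel_pir30090: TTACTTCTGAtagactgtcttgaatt
novel_pir30601: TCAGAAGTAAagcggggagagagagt
novel_pir407384: GTGAAGCCactggaccccactcgatg
novel_pir407393: GGCTTCACacaaccagatgcccacctgggg

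**Figure D4:**
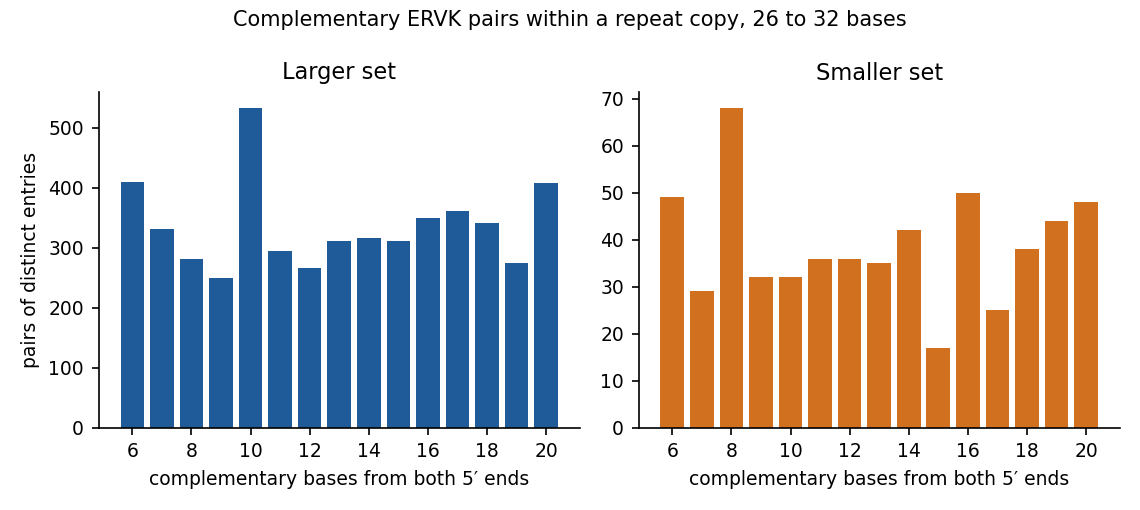
Number of pairs of distinct ERVK entries of 26 to 32 bases in the same repeat copy (y axis) whose first bases are complementary over the given length (x axis, bases), in the larger set (left) and the smaller (right). From 6 to 20 bases are drawn. The bar at 10 holds 533 pairs on the left, and the bar at 8 holds 68 pairs on the right.

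The shift of the first-base share was not particular to ERVK. LINE/L1 entries of 26 to 32 bases had T first in 46.4% to 64.1% in the larger set and 27.4% to 32.5% in the smaller, and LTR/ERV1 entries in 50.2% to 69.0% and 22.2% to 29.4%. At the tenth base the larger-set median of A was 34.1% for ERVK, 26.3% for LINE/L1, 29.3% for LTR/ERV1, 27.3% for LTR/ERVL and 28.0% for LTR/ERVL-MaLR.

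Over all reads, ERVK was compared with LINE/L1, the main non-LTR class, and with LTR/ERV1, the gammaretrovirus-like class, in the same 18 libraries (two-sided permutation test that flips the sign of each library's difference, 8 comparisons adjusted together). A at the tenth base was present in 30.1% ± 12.2 (SD, n = 18) of ERVK reads and 15.5% ± 10.8 of LTR/ERV1 reads, higher for ERVK in 17 of 18 libraries (permutation p = 4e-05, adjusted p = 0.00016). The difference of 14.6 points was 1.92 with each distinct sequence counted once (permutation, adjusted p = 0.0002) and 5.53 without the 10 most abundant sequences of each class (permutation, adjusted p = 0.0158). Against LINE/L1, at 26.5% ± 6.10, the difference was 3.61 percentage points (permutation p = 0.329, adjusted p = 0.329). It was 12.6 points in the larger set alone, higher in 12 of 12 libraries (exact permutation p = 0.000488, adjusted p = 0.00195), and −14.4 points in the smaller set alone, higher in 0 of 6 (exact permutation p = 0.0312, adjusted p = 0.0417). The pooled value for LINE/L1 therefore holds for neither set.

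T was the first base of 24.3% ± 9.08 of ERVK reads, 30.1% ± 4.47 of LINE/L1 reads and 16.4% ± 11.6 of LTR/ERV1 reads (n = 18). ERVK was lower than LINE/L1 by 5.86 points, with ERVK the higher in 6 of 18 libraries (permutation p = 0.0170, adjusted p = 0.0273). Within the larger set the difference was −1.73 points, with ERVK higher in 6 of 12 libraries and the call lost (exact permutation, adjusted p = 0.475), and in the smaller set −14.1 points, with ERVK higher in 0 of 6 (exact permutation, adjusted p = 0.0417). It was higher by 2.65 points when each distinct sequence was counted once (permutation, adjusted p = 0.0486). Leaving out F0 NHS replicate 1, F1 NHS replicate 2, F2 Con replicate 2 or F2 NHS replicate 1 singly ended the call (−6.86 to −4.88 points over all such fits). Against LTR/ERV1 it was higher by 7.92 points, in 15 of 18 libraries (permutation p = 0.00142, adjusted p = 0.00379), and by 4.96 points in the larger set alone (exact permutation, adjusted p = 0.0840).

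Reads of 26 to 32 bases made up 10.7% ± 6.64 of ERVK reads and 5.41% ± 5.45 of LTR/ERV1 reads, higher for ERVK in 18 of 18 libraries (permutation p = 4e-05, adjusted p = 0.00016). With each distinct sequence counted once the order turned, by −1.63 points (adjusted p = 0.000411). LINE/L1 stood at 12.2% ± 7.48 (permutation p = 0.0547, adjusted p = 0.0729). Mean read length was 21.5 ± 1.27 bases for ERVK, 21.2 ± 1.26 for LINE/L1 (permutation p = 0.182, adjusted p = 0.207) and 20.6 ± 0.698 for LTR/ERV1 (permutation p = 0.00208, adjusted p = 0.00416, ERVK longer in 14 of 18 libraries). Against LTR/ERV1 the order of lengths turned with each distinct sequence counted once, by −0.142 bases with ERVK longer in 2 of 18 (permutation, adjusted p = 0.000384), and the smaller set alone gave −0.00534 bases (exact permutation, adjusted p = 1). Against LINE/L1 the sets were called in opposite directions, ERVK being longer by 0.737 bases in the larger (exact permutation, adjusted p = 0.00391) and differing by −0.648 bases in the smaller (exact permutation, adjusted p = 0.0417). Reads ending in CCA, the end of a mature tRNA, made up 0.552% to 2.70% of ERVK reads and 37.1% to 81.6% of LTR/ERV1 reads. These were not part of the tests.

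Some ERVK entries have another possible source. Exact matches to structured RNAs of GENCODE (snoRNA, snRNA, rRNA, mitochondrial and other such genes) were found for 908 ERVK entries (0.653%) and 17 of the 275 tested. They held 1.02% to 17.5% of the ERVK reads of a library. Matches to snoRNA genes reached 15.1% of reads, and matches to genes typed as miRNA reached 44.3%. The share with structured RNA was 17.5%, 4.02% and 17.5% in F0 Con and 1.02%, 1.44% and 3.05% in F0 NHS, so all 3 F0 Con libraries lay above all 3 F0 NHS libraries. This difference was not tested.

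The number of distinct ERVK sequences per library describes how varied the class was. It was 12440, 9174 and 12082 in F0 Con and 12198, 11495 and 8872 in F0 NHS. In F1 it was 11558, 8935 and 11404 in Con and 23360, 15873 and 19084 in NHS, and in F2 8028, 5469 and 5868 in Con and 8005, 14621 and 16767 in NHS. F1 NHS lay above F1 Con without overlap, 2 of the 3 F2 NHS libraries lay above F2 Con, and the F0 groups overlapped. The means were 11232 ± 1791 and 10855 ± 1753 in F0, 10632 ± 1472 and 19439 ± 3756 in F1, and 6455 ± 1377 and 13131 ± 4567 in F2 (Con and NHS, SD, n = 3 each). With 3 libraries against 3 no test was made.

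At equal depth the order in F1 was the same. Expected numbers at the smallest library total were 8952, 7594 and 9491 in F1 Con and 23360, 11068 and 13770 in F1 NHS, and 6918, 5391 and 5384 in F2 Con and 6747, 11669 and 12686 in F2 NHS. Other properties did move with it. The 5 libraries with the most distinct ERVK entries were the 5 whose deposited lists run to the end of the table before their own end, which list 1.74% to 42.3% of their reads, and their part in the number was not tested. F1 NHS replicate 1 held the entries under 18 bases. Counting entries with at least 2 reads, the means were 5129 ± 1163 in F1 Con and 5512 ± 162 in F1 NHS, and 4452 ± 531 in F2 Con and 5658 ± 557 in F2 NHS. By that count the F1 groups overlapped, at 4422, 4494 and 6472 in Con and 5455, 5387 and 5695 in NHS. The F2 groups did not, at 4629, 3856 and 4872 in Con and 5020, 6046 and 5907 in NHS.

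Summed ERVK levels did not follow the number of sequences. They were 1995, 1207 and 2225 TPM in F0 Con and 3862, 3377 and 819 in F0 NHS. In F1 they were 1661, 1765 and 2030 TPM in Con and 3658, 1427 and 2098 in NHS, and in F2 1490, 3944 and 1917 in Con and 1552, 3216 and 2014 in NHS. Groups overlapped in every generation. As a share of predicted piRNA reads, ERVK took 20.6% to 40.2% in the larger set and 11.02% to 16.6% in the smaller, without overlap. Forms without the first base that were filed under another class do not count as ERVK here. Their part in this difference was not tested. The chromosome 11 copy made up 2077 of the 3944 TPM of F2 Con replicate 2.

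**Figure D5:**
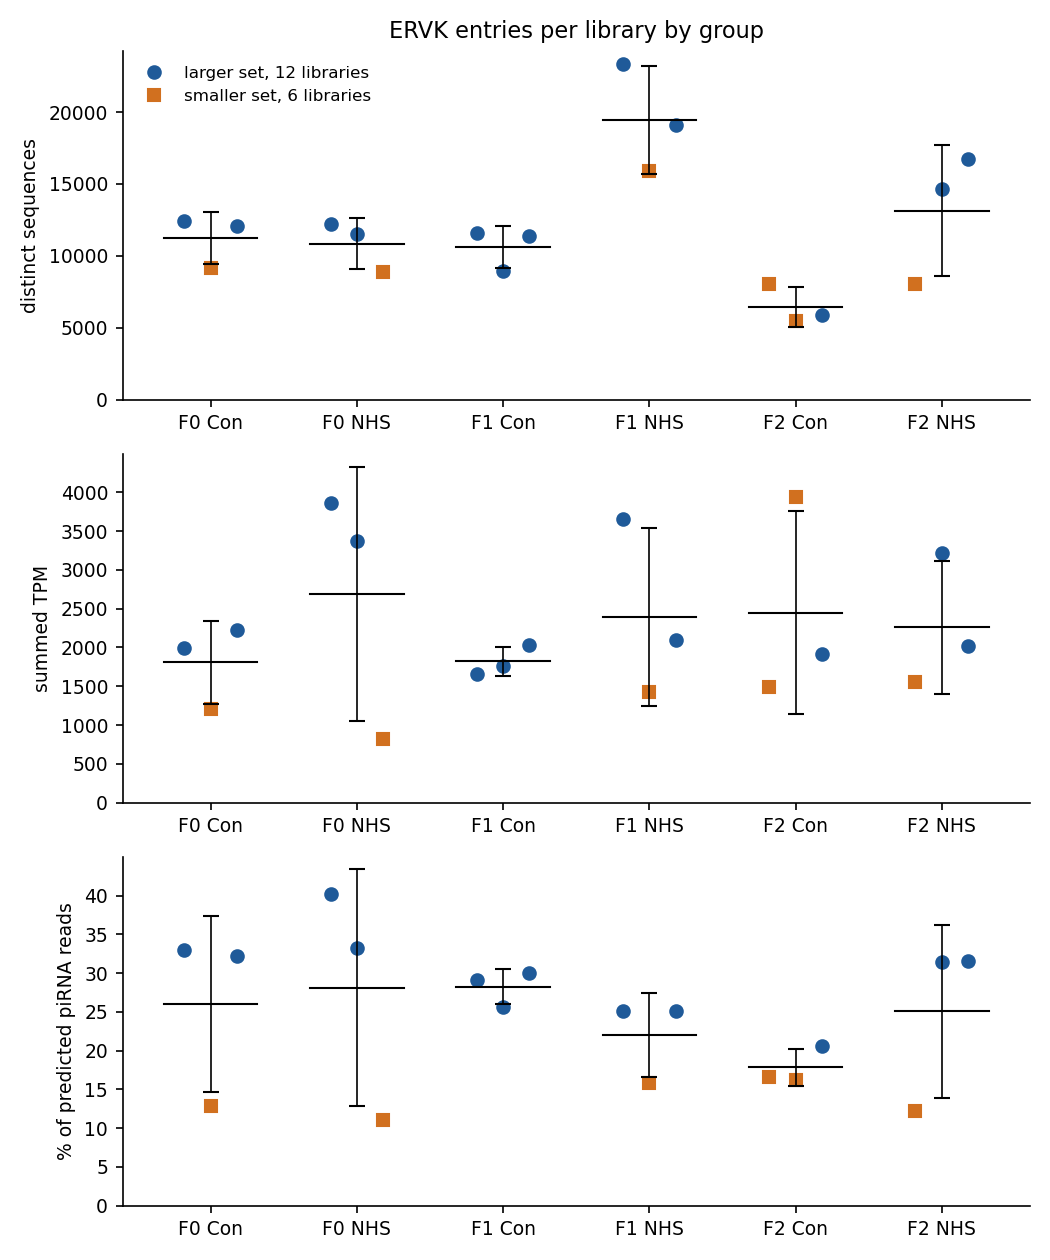
Distinct ERVK sequences (top), summed ERVK TPM (middle) and ERVK percent of predicted piRNA reads (bottom) in each library by group (x axis), with the group mean and SD (lines, n = 3). F1 NHS libraries lie at 15873 to 23360 distinct sequences and F1 Con at 8935 to 11558, while the lower share of predicted piRNA reads, 11.02% to 16.6%, is that of the 6 libraries of the smaller set.

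The class totals were tested with edgeR's quasi-likelihood test over 17 repeat classes with library totals as offsets, where 0% of the classes passed in F0, 5.88% in F1, 0% in F2, 0% for the mean over generations, 0% for the difference between generations and 5.88% among the Con groups. ERVK passed in none of the 6. Its log2 difference of NHS from Con was 0.57 (SE 0.54, edgeR adjusted p = 0.666) in F0, 0.40 (SE 0.53, adjusted p = 0.497) in F1, −0.12 (SE 0.53, adjusted p = 0.970) in F2 and 0.28 (SE 0.31, adjusted p = 0.630) as the mean of the 3. The difference of the effect between generations had an edgeR adjusted p of 0.647 and the difference between the Con groups one of 0.780. In the larger set alone, where F2 Con is replicate 3 alone, the mean effect was 0.63. It was −0.19 (adjusted p = 0.529) with TMM scaling over classes.

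Single members were tested with edgeR over the 937 predicted piRNAs that reached 1 CPM in 3 or more libraries. The 275 ERVK entries among them were 0.198% of the ERVK entries, while 0.155% of all predicted piRNAs passed, and they held 50.1% of ERVK TPM. Of the 275, 107 began with T, 32 had 26 to 32 bases and 17 had both. They came from 92 repeat copies and 84 groups of overlapping sequence, so their calls would not be independent.

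In F0, 0 of 275 ERVK entries were called (background 0% of 937) with 16 at an unadjusted p under 0.05 (5.82% against 4.59% of all), and DESeq2 called 4 (1.45% against 0.961%). In F1, 0 were called (background 0%) with 29 at an unadjusted p under 0.05 (10.5% against 6.72%), and DESeq2 called 7 (2.55% against 1.17%). In F2, 0 were called (background 0.107%) with 33 at an unadjusted p under 0.05 (12% against 10.2%), and DESeq2 called 11, all higher in NHS (4% against 3.2%). For the mean over generations, 0 were called (background 0%) with 19 at an unadjusted p under 0.05 (6.91% against 6.62%), and DESeq2 called 8 (2.91% against 2.67%). By these measures the ERVK shares lay near those of all predicted piRNAs in F0, in F2 and for the mean, and above them in F1. At an unadjusted DESeq2 p under 0.05 the ERVK share in F0 was the lower, at 8.36% against 9.61%. The 937 include the 275 ERVK entries, and whether the shares differ was not tested.

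For the change of the NHS effect across generations, edgeR called 0 of 275 (background 0%), with 31 at an unadjusted p under 0.05 (11.3% against 7.58%), and DESeq2 called 5 (1.82% against 0.854%). Among the 3 Con groups, edgeR called 0 (background 0%), with 42 at an unadjusted p under 0.05 (15.3% against 14%) and a smallest adjusted p of 0.0657, and DESeq2 called 15 (5.45% against 5.66%). With a term for the library sets edgeR called 11 ERVK entries among the Con groups (4% against 4.06%).

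Other fits gave the ERVK entries more calls in some contrasts. Without the filter on low counts, edgeR tested 137981 ERVK entries of 601270 predicted piRNAs. It then called 5 in F0 (0.00362% against 0.0015%), 7 in F1 (0.00507% against 0.00283%) and 2 in F2 (0.00145% against 0.000832%). It called 3 for the mean over generations (0.00217% against 0.00116%), 7 for the difference between generations (0.00507% against 0.00249%) and 8 among the Con groups (0.0058% against 0.00283%). Each ERVK share in this fit was above that of all predicted piRNAs, on few calls. In the larger set of libraries alone, F2 Con is replicate 3 alone. The calls in F2, for the mean, for the difference and among the Con groups therefore rest on a group without a measured spread. No conclusion is drawn from them. In that fit 196 ERVK entries of 718 were tested. There edgeR called 2 in F0 (1.02% against 0.279%), 3 in F1 (1.53% against 0.975%) and 8 in F2 (4.08% against 5.01%). It called 4 for the mean (2.04% against 4.18%), 14 for the difference (7.14% against 6.55%) and 11 among the Con groups (5.61% against 9.19%). In F0 and F1 the ERVK shares in the larger set lay above those of all predicted piRNAs, but few entries were called at all.

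The term for the library sets gave 0 ERVK calls in F0 (background 0.107%), F1 (background 0%), F2 (background 0.534%), the mean (background 0.64%) and the difference (background 0.107%). At an unadjusted p under 0.05 it had 29 of the 275 in F0 (10.5% against 12.4% of all), 23 in F1 (8.36% against 6.72%), 44 in F2 (16% against 14.3%), 41 for the mean (14.9% against 13.4%) and 45 for the difference (16.4% against 14.3%). With reads summed per repeat copy, 256 ERVK copies of 834 were tested and edgeR called 4 among the Con groups (1.56% against 2.28%), or 5 with the term for the library sets (1.95% against 3.96%). In the other 5 contrasts it called 0 copies with or without that term (background 0%), with 5.47% to 12.5% of the ERVK copies at an unadjusted p under 0.05 against 5.4% to 12.7% of all 834 copies.

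The median log2 difference of the 275 ERVK entries was 0.21 in F0, 0.00 in F1 and 0.96 in F2, beside 0.15, −0.02 and 0.41 over all 937. Single libraries moved these medians. In F2 that of ERVK was 2.01 without F2 Con replicate 3, 1.51 without F2 NHS replicate 1 and 0.63 without F2 Con replicate 2 (0.77, 0.44 and 0.22 over all tested), and 0.19 over the 102 ERVK entries tested in a fit of the F2 libraries alone. Over all fits that left out 1 library, it ranged from −0.08 to 0.44 in F0 and from −0.33 to 0.29 in F1, so neither kept its sign. With entries that lack reads in a whole group set at their bound (3 counts per library as the floor), the ERVK medians were 0.13, 0.00 and 0.90, beside 0.13, −0.02 and 0.40. Scaling moved these values: with library totals in place of TMM the medians over all 937 were 0.42, 0.20 and −0.23 and those of ERVK 0.43, 0.33 and 0.21. With reads summed per repeat copy, which joins the forms that differ at their ends, the medians of 256 ERVK copies were 0.23, −0.06 and −0.00, beside 0.10, −0.04 and 0.05 over 834 copies. The 275 entries came from 92 copies, so most of the 256 copies hold no tested entry and the medians are not over the same features. Whether joining such forms moved the F2 median was not tested.

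The members with the smallest p in each contrast were named by rule. novel_pir372886, which occurs exactly in 203 snRNA genes, was among them in 4 of 6 contrasts. It stood at 5.06, 2.74 and 12.9 TPM in F0 Con and 0.0721, 0.170 and 0.378 in F0 NHS, without overlap. It stood at 0.156, 2.46 and 1.77 TPM in F1 Con and 2.03, 0.414 and 2.22 in F1 NHS, and had 0 reads in the 3 F2 Con libraries and 0, 1.57 and 2.08 TPM in F2 NHS. In F0 the log2 difference was −5.10 (SE 1.62, edgeR adjusted p = 0.986). In F2 it was at least 8.97-fold higher in NHS by the group means (edgeR adjusted p = 0.177). Its edgeR adjusted p was 0.208 for the difference between generations and 0.0657 among the Con groups.

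The other members named in F0 also match structured RNA. novel_pir176721, which occurs in 52 rRNA genes, stood at 2.94, 1.42 and 3.20 TPM in Con and 0.180, 0.170 and 0.0945 in NHS (log2 −4.31, SE 1.23, edgeR adjusted p = 0.986). novel_pir321236, of the snoRNA genes named above, stood at 3.92, 0.236 and 8.59 TPM in Con and 0.324, 0.578 and 0.189 in NHS (log2 −3.83, SE 1.33, edgeR adjusted p = 0.986). For the first the groups did not overlap, and for the second they did.

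In F1 the named members were novel_pir257859 (log2 −5.21, SE 1.80) and novel_pir257871 (log2 −5.86, SE 2.02) of the chromosome 11 copy, and novel_pir549344, each with an edgeR adjusted p of 0.675. novel_pir257871 stood at 93.8, 56.5 and 16.2 TPM in F1 Con and 0.987, 0.587 and 1.89 in F1 NHS. In F0 it stood at 5.92, 0.0945 and 17.6 TPM in Con and 377, 207 and 0.0473 in NHS, so its lowest F0 values are those of the smaller set. novel_pir549344 had 0 reads in the 3 F1 Con libraries and 0.116, 1.38 and 0.778 TPM in F1 NHS, at least 6.28-fold higher by the group means. All 3 F1 Con libraries belong to the larger set and F1 NHS replicate 2 to the smaller.

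In F2 the named members besides novel_pir372886 were novel_pir549431 and novel_pir75450. novel_pir549431 stood at 0.0836, 0 and 0 TPM in Con and 0.694, 2.29 and 1.96 in NHS (log2 5.94, SE 1.46, edgeR adjusted p = 0.177). novel_pir75450, filed at chr10:73548669-73549423 (minus strand) in an intron of Pcdh15 on the opposite strand, had 0 reads in Con and 0, 0.362 and 2.85 TPM in NHS, which by the group means was at least 7.89-fold higher (edgeR adjusted p = 0.324). For the mean over generations they were novel_pir549333 (log2 2.43, SE 0.78, edgeR adjusted p = 0.451), novel_pir549344 (2.91, SE 0.97, adjusted p = 0.456) and novel_pir75448 (2.20, SE 0.75, adjusted p = 0.456), none past the threshold in this fit. novel_pir359883 had a mean log2 difference of 1.89 (SE 1.13, edgeR adjusted p = 0.673).

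The difference between generations and the Con comparison named 2 further members, beside novel_pir549431 (edgeR adjusted p = 0.617 and 0.182). novel_pir531220 at chr1:32588609-32588654 (minus strand, intron of Khdrbs2, opposite strand), a copy of 45 bases with 155 entries, stood at 0.823, 0.189 and 2.08 TPM in F0 Con and 18.5, 41.5 and 0.284 in F0 NHS. In F1 it stood at 12.7, 28.4 and 13.6 TPM in Con and 0.987, 1.73 and 1.33 in NHS, and its edgeR adjusted p for the difference between generations was 0.617. novel_pir416235, in an intron of Cadm2, stood at 0.118 to 0.427 TPM in F0 Con, 0.117 to 0.425 in F1 Con and 3.64 to 10.6 in F2 Con, without overlap of F2 with the others (edgeR adjusted p = 0.213).

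Other fits called most of these named members. DESeq2 called novel_pir176721 (DESeq2 adjusted p = 0.00316) and novel_pir372886 (0.0490) in F0, and novel_pir257859 (0.00883), novel_pir257871 (0.00993) and novel_pir549344 (0.0195) in F1. In F2 it called novel_pir549431 (DESeq2 adjusted p = 0.000917), novel_pir372886 (0.0020) and novel_pir75450 (0.0154), and for the mean novel_pir549333 (0.0275) and novel_pir75448 (0.0454). It also called each member named for the difference between generations and for the Con groups. When fitted to the larger set alone, edgeR called novel_pir372886 in F0 (edgeR adjusted p = 0.0248), and novel_pir257859 (0.0400) and novel_pir257871 (0.0142) in F1. In that set F2 Con is replicate 3 alone, with 0 reads of novel_pir372886 and novel_pir549431, so their F2 values are not given. The mean log2 difference of novel_pir75448 there was 3.23. Without the filter, edgeR gave novel_pir257859 an adjusted p of 3.09e-18 and novel_pir257871 one of 3.17e-09 in F1, and novel_pir359883 one of 1.78e-42 for the mean. The log2 differences of these 3 members hardly moved with the filter. They were −4.83 without it and −5.21 with it for novel_pir257859, and −5.64 and −5.86 for novel_pir257871. For novel_pir359883 they were 2.24 and 1.89, and its groups overlapped in every generation. The very small values of the fit without the filter therefore do not measure the spread of such abundant members between libraries. novel_pir321236 in F0 and novel_pir549344 for the mean passed in none of the fits run. The highest adjusted p over the alternatives was 0.957 for novel_pir359883 and 1 for the members named in F1.

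Entries of the classic piRNA form, T first and 26 to 32 bases, were low. The most abundant was novel_pir289592, a TTGG repeat in an intron of Dync1h1, with a mean of 1.35 TPM and 0 reads in 3 of the 6 smaller-set libraries. novel_pir439507 averaged 1.01 TPM and had 0 reads in all 6 libraries of the smaller set. In the larger set it stood at 0.196 to 3.78 TPM, highest in F1 Con replicate 2. novel_pir531192, of the 45-base copy on chromosome 1, averaged 1.003 TPM over all 18 libraries.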

How the data were processed

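The authors deposited, per the file headers, a count and a TPM value for each small RNA of each of 18 libraries. The deposited counts are whole reads, and the deposited TPM is the count divided by the library total and scaled as CPM is. The submitters' processing notes name build mm10; the aligner, counter and prediction tools were not given in the sources used here. Lists of 5 libraries stop early and list 1.74% to 42.3% of their reads; their totals were derived by dividing count by TPM. Entries up to number 605324 were used, which all 18 lists hold whole.

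Counts of all predicted piRNAs with at least 1 CPM in 3 libraries were fitted with edgeR 4.0.16 (TMM, quasi-likelihood, library totals, all 6 groups in 1 model) under R 4.3.3, with Benjamini-Hochberg adjustment over all 937 and a threshold of 0.05. DESeq2 1.42.0 was an alternative and limma 3.58.1 another for class totals. Class comparisons used permutation tests of scipy 1.17.1. Small RNA transcripts of GENCODE vM21 were matched exactly. Code was tested on simulated data. Named members were the 10 most abundant, the 3 with the smallest p per contrast, the 3 most abundant with T first and 26 to 32 bases, and the leading members of the 5 largest overlap groups. The members and lists were chosen with earlier results of these data known. Alternatives with the larger or smaller set alone and with reads summed per repeat copy were added after seeing the data.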

Additional observations from a re-analysis of the deposited data

Results flagged for a closer look

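The number of ERVK sequences listed in 1 library and no other moved in opposite directions between generations, and every library of each NHS group lay on the same side of its controls. In F0 it was 5935, 5823 and 5668 in Con and 5133, 5117 and 4674 in NHS, a difference of means of −834. In F1 it was 4834, 3363 and 4640 in Con and 14639, 9152 and 10128 in NHS, a difference of 7027. In F2 it was 3861, 2567 and 2850 in Con and 4253, 7961 and 8921 in NHS, a difference of 3952. The difference between generations was not tested. Beside it stand the lists that end early, which are those of the 3 F1 NHS libraries and of F2 NHS replicates 2 and 3, and the 35.5% of ERVK reads under 18 bases in F1 NHS replicate 1. The entries counted come before the ends of these lists, so the early ends removed none. What else sets these libraries apart, and the part of the short reads, was not tested.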

How the results depend on the processing

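For single ERVK entries, edgeR called 0 in each of the 6 contrasts (F0, F1, F2, their mean, the difference between generations, the Con groups), with unadjusted counts given above. In that order DESeq2 called 4, 7, 11, 8, 5 and 15, edgeR without the filter 5, 7, 2, 3, 7 and 8, and edgeR in the larger set alone 2, 3, 8, 4, 14 and 11 (background 0.279%, 0.975%, 5.01%, 4.18%, 6.55% and 9.19%). In the larger set F2 Con is replicate 3 alone, so no conclusion is drawn from its counts in the contrasts after F1. Among the Con groups the term for the library sets gave 11 calls (background 4.06%), reads summed per repeat copy 4 (background 2.28%), and both together 5 (background 3.96%). Leaving out single libraries gave 0 to 1 calls in F2, the difference and the Con groups, the call being novel_pir372886 without F2 NHS replicate 1, and 0 in the other contrasts. Without that library 259 ERVK entries of 901 were tested. Over all 901, edgeR then called 3 in F2, 2 for the difference and 5 among the Con groups. With the replicate number as a block, 0 ERVK entries were called in each contrast. Same-numbered Con and NHS libraries correlated at 0.44, −0.70 and −0.69 in F0, −0.08, −0.00 and −0.05 in F1 and 0.62, −0.33 and 0.64 in F2. In F0 and F2 libraries of the same set correlated positively and those of different sets negatively. These values therefore cannot tell whether equal numbers pair the libraries there. In F1 all pairs, same-numbered or not, ran from −0.08 to 0.11.

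The class total turned direction in F1 with TMM over classes (−0.32) and with the total of predicted piRNA reads (−0.36), in F2 with that total (0.49) and in the larger set alone (0.45), and for the mean with TMM (−0.19). The mean reached 0.63 in the larger set alone. Leaving out single libraries gave −0.045 to 0.66 in F1 and −0.46 to 0.41 in F2. In the larger set F2 Con is replicate 3 alone, so the values of that set are given as effects alone. None of the others passed the threshold.

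ERVK minus LINE/L1 in T share was −1.73 points in the larger set alone, 2.65 with distinct sequences and 5.24 without the 10 most abundant of each class, and −6.86 to −4.88 on leaving out single libraries. In A share it was 12.6 in the larger set, −14.4 in the smaller and 2.21 with distinct sequences. In mean length it was 0.737 and −0.648 bases in the larger and smaller sets, 0.409 with distinct sequences and 0.272 without the 10 most abundant. In the share of 26 to 32 bases it was 2.18 with distinct sequences, 0.929 without the 10 most abundant and −1.78 to −1.05 on leaving out single libraries. ERVK minus LTR/ERV1 in T share was 4.96 in the larger set, in mean length −0.00534 in the smaller set and −0.142 with distinct sequences, and in the share of 26 to 32 bases −1.63 with distinct sequences. The causes were not tested.

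With at least 2 reads, distinct sequences averaged 3334, 4553, 5129, 5512, 4452 and 5658 in F0 Con, F0 NHS, F1 Con, F1 NHS, F2 Con and F2 NHS. At the smallest library total F0 NHS averaged 8501 and F1 Con 8679. With 56.3% of listed entries at a single read, depth limits what can be said of single sequences.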
